A study of Mus musculus with 24 samples.

Results

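The enzymes described here make, convert and break down serine, glycine and threonine: Tdh, Gcat, Gldc, Shmt1, Shmt2, Mthfd2, Mthfd1l, Phgdh, Psat1 and Psph. They were chosen by symbol, as every array probe whose accession maps to 1 of these 10 genes, and they make up 10 of the 22394 genes tested. The 10 genes had 14 probes, and all 14 were well above background in both channels on all 24 arrays. The cells were R1, an established line of mouse embryonic stem (ES) cells, and Agilent arrays read their RNA in Cy5 against a universal mouse reference RNA, pooled from several other mouse lines, in Cy3. All cells had been infected with a lentivirus that carried a short hairpin RNA, and the control groups carried one too (shNTC). Cells were taken 8 days after infection with shNTC or one of the hairpins shCdk8-1 and shCdk8-2, or after 13 days with the same 3 or with a hairpin against Med12 (shMed12-1, shMed12-2), and each of the 8 groups had 3 arrays. Both target genes encode parts of Mediator's kinase module, which docks onto the rest of that transcription coactivator. Replicates are labelled as biological, with no word on separate cultures or infections, so every p-value here rests on the spread among these arrays alone.

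Threonine dehydrogenase, the product of Tdh, oxidises threonine in mitochondria, and the enzyme encoded by Gcat splits the product into glycine and acetyl-CoA. Gldc encodes the decarboxylase of the glycine cleavage system, which passes a carbon of glycine to folate, and the serine hydroxymethyltransferases Shmt1 (cytosol) and Shmt2 (mitochondria) interconvert serine and glycine and load folate in the same way. Mthfd2 and Mthfd1l then turn the mitochondrial folate-bound carbon into formate for purine and thymidylate synthesis, while Phgdh, Psat1 and Psph make serine from a glycolytic intermediate. Mouse ES cells are known for their high threonine dehydrogenase and for their dependence on threonine in culture.

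The targeted genes were lower with every hairpin. Cdk8 differed from shNTC by -0.71 and -0.31 (log2) on day 8 and by -0.95 and -0.64 on day 13 with shCdk8-1 and shCdk8-2, and Med12 by -0.88 with its second hairpin and slightly more with its first (adjusted p between 9.5e-09 and 0.0075, limma). All 11 ES cell markers tested were above the reference in all 8 groups, and 11 of 12 fibroblast markers were below it in all groups. Also above it in all groups were 4 of 4 mesoderm, 4 of 5 neural, 3 of 6 trophectoderm and 2 of 12 primitive endoderm markers. Group medians (log2) ran from 4.70 to 5.74 for ES cell, 0.51 to 1.30 for neural and 0.35 to 0.58 for mesoderm markers. Between 48.9 and 76.1% of spots per array were well above background in Cy5. On 2 arrays, replicate 1 of shCdk8-1 on day 8 and replicate 3 of shMed12-1, the background correction took a stray course: a few spots (4 and 5) with a local background far above their own signal moved the fitted background level of the Cy3 channel to -212 and -171 intensity units, against -14.2 to -0.212 on the other 22 arrays, and shrank the log ratios of these arrays to slopes of 0.785 and 0.792 on their group. The background was therefore also fitted without those spots (called refitted below, chosen after the data were seen). Values of both fits are given for some of the results where they part, not for all. The stray fit touches mainly Tdh, Gldc and Shmt1, the members with the highest ratios to the reference.

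Tdh stood far above the reference RNA in every group. Its log2 ratio over 24 arrays ran from 7.48 to 8.30 with a median of 7.97, a 251-fold higher signal in the cells, and its mean ratio was the third highest of 22394 genes. The Tdh probe read a median of 134349 intensity units in Cy5 and 316 in Cy3, and no spot was saturated. Gldc followed with a median log2 ratio of 4.89, or 29.7-fold, at rank 63 of 22394, and Shmt1 with 2.27, or 4.84-fold, at rank 570. The Gldc probe read a median of 4900 intensity units in Cy5 and only 114 in Cy3 (76 to 142 over the arrays). The size of the Gldc ratio therefore rests on a weak Cy3 signal and depends on how the background is treated. Threonine oxidation, glycine cleavage and the cytosolic serine-glycine exchange were thus each represented by an enzyme whose mRNA was far more abundant in the cells than in the reference.

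The other 7 members lay within about 1 log2 unit of the reference. Median log2 ratios were 0.57 for Gcat, 0.41 for Psph, 0.22 for Mthfd2, 0.00 for Psat1, -0.26 for Mthfd1l, -0.60 for Shmt2 and -0.81 for Phgdh. Gcat and Psph were above the reference on 24 of 24 arrays, Mthfd2 on 21 and Psat1 on 12, while Shmt2, Mthfd1l and Phgdh were below it on every array. Gcat works directly after Tdh in threonine breakdown, and its ratio to the reference was 1.49-fold beside the 251-fold of Tdh. A ratio to the reference compares the cells with that RNA for one gene at a time, so it does not rank the mRNAs of different enzymes against each other within the cells.

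**Figure D1:**
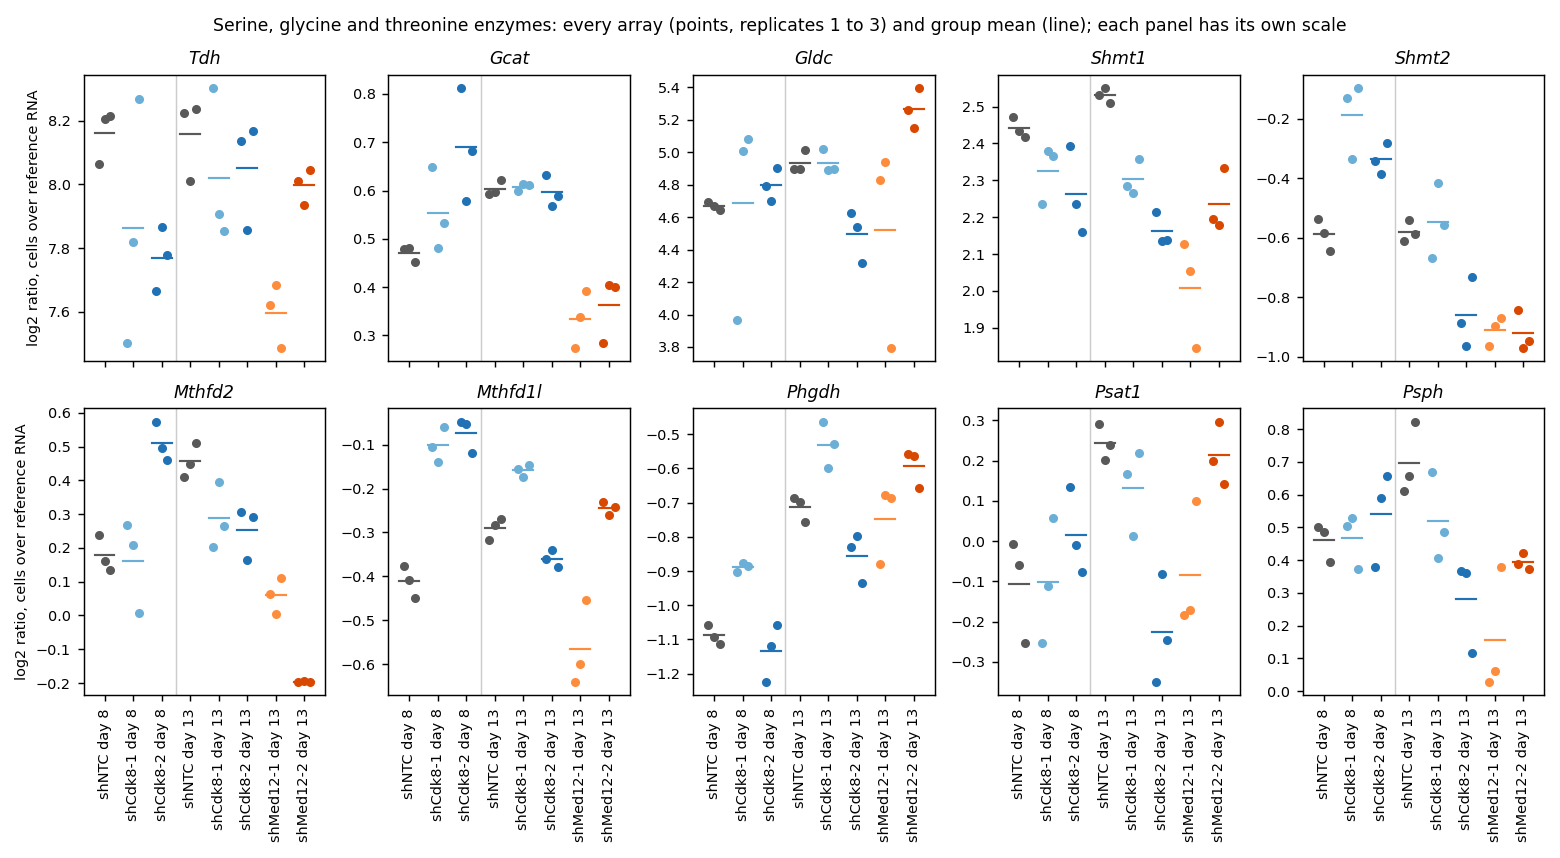
Log2 ratio of the cells' RNA over the reference RNA (vertical axis, a separate scale in each panel) for the 10 enzyme genes in the 8 groups; points are the 3 arrays of a group, lines are group means, and the grey vertical line parts day 8 from day 13. Tdh runs from 7.48 to 8.30, Gldc drops to 3.97 and 3.79 on 1 array each of shCdk8-1 day 8 and shMed12-1, and Mthfd2 with shMed12-2 lies near -0.20 on all 3 arrays.

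Tdh was highest in both control groups. The shNTC arrays of day 8 read 8.07, 8.20 and 8.21 and those of day 13 read 8.22, 8.01 and 8.24 (means 8.16 ± 0.08 and 8.16 ± 0.13, SD, n = 3). On day 8 the arrays read 7.50, 7.82 and 8.27 with shCdk8-1 and 7.66, 7.87 and 7.78 with shCdk8-2. All shCdk8-2 arrays were below all controls of that day, while the shCdk8-1 arrays spread across them. On day 13 the arrays read 8.30, 7.91 and 7.85 with shCdk8-1, 8.14, 7.86 and 8.17 with shCdk8-2, 7.62, 7.68 and 7.48 with shMed12-1 and 8.01, 7.93 and 8.05 with shMed12-2. Of these groups shMed12-1 did not overlap with shNTC, and the other groups did.

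By the limma test Tdh was lower with shMed12-1 than with shNTC by 0.56 log2 units, or 1.47-fold (difference -0.56, SE 0.14, adjusted p = 0.0069), and by 0.16 with shMed12-2 (difference -0.16, adjusted p = 0.52), so it was not called with both hairpins. On day 8 the differences were -0.30 with shCdk8-1 (adjusted p = 0.17) and -0.39 with shCdk8-2 (adjusted p = 0.076), and on day 13 -0.14 and -0.10. Tdh was called with both Cdk8 hairpins on day 8 in 0 of 16 other settings and in 1 of 9 fits with 1 array left out. That fit, where Tdh was lower, left out shCdk8-1 replicate 3. It kept replicate 1, the array with the stray background fit, at 7.50 (8.00 after the refit). With the refitted background the differences became -0.38 with shMed12-1 (adjusted p = 0.023), -0.13 with shCdk8-1 on day 8 (adjusted p = 0.5) and, still, -0.39 with shCdk8-2 (now called, adjusted p = 0.027). Replicate 3 of shMed12-1 then read 8.01, level with the lowest control array of day 13. The shCdk8-2 difference of day 8 was not called in the value table that the authors deposited (-0.31, adjusted p = 0.19, limma). Nor was it with the slide of each array as a block in the fit (-0.29, adjusted p = 0.35). It was called with Cy5 alone (-0.53, adjusted p = 6e-06) and without both arrays with a stray background fit (-0.39, adjusted p = 0.022). In the order of the 8 group means, each group overlapped with the next, so that neighbours in that order could not be separated. Between the days the shNTC means of Tdh differed by 0.00 (95% interval -0.30 to 0.29).

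Gldc, the glycine cleavage gene, kept a high ratio in all groups but had a single low array in 2 of them. The shNTC arrays read 4.69, 4.67 and 4.65 on day 8 and 4.89, 4.90 and 5.02 on day 13. With shCdk8-1 they read 3.97, 5.01 and 5.08 on day 8 and with shMed12-1 4.83, 4.94 and 3.79, where the single low array of each group is the one with the stray background fit. With shCdk8-2 the arrays read 4.79, 4.70 and 4.90 on day 8 and 4.63, 4.54 and 4.32 on day 13, with shCdk8-1 on day 13 5.02, 4.89 and 4.90, and with shMed12-2 5.26, 5.15 and 5.40. All shMed12-2 arrays were above all shNTC arrays of their day, and all shCdk8-2 arrays of day 13 were below them.

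In the fit on all spots Gldc was not called against shNTC with any hairpin (adjusted p between 0.23 and 1). The largest differences were -0.44 with shCdk8-2 on day 13, -0.42 with shMed12-1 and 0.33 with shMed12-2. At a standard error of 0.24 this fit could not tell changes of that size from 0. After the refit the low arrays read like the other arrays of their group (4.81 beside 4.83 and 4.94 with shMed12-1), the standard error of a hairpin's difference fell from 0.24 to 0.07, and Gldc was called higher with shCdk8-1 on day 8 (0.36, adjusted p = 0.0013), lower with shCdk8-2 on day 13 (-0.44, adjusted p = 0.00023) and higher with shMed12-2 (0.33, adjusted p = 0.0019). The other hairpin of each pair gave 0.13 (shCdk8-2 day 8), 0.00 (shCdk8-1 day 13) and -0.08 (shMed12-1) after the refit, so this decarboxylase was called with both hairpins of a gene under neither background fit. For shCdk8-1 on day 8 the settings parted. Gldc was not called in the value table that the authors deposited (0.05, adjusted p = 0.78, limma) or with the background subtracted (0.16, adjusted p = 0.45). With the slide as a block the difference was -0.003. It was called with Cy5 alone (0.54, adjusted p = 3.7e-05) and without both arrays with a stray background fit (0.37, adjusted p = 0.0044). With shCdk8-2 on day 8 the sign of the Gldc difference changed with the setting, and none of these values was called. It was -0.05 with the background subtracted and -0.08 in the authors' table, against 0.27 with the slide as a block and 0.20 with Cy5 alone.

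**Figure D2:**
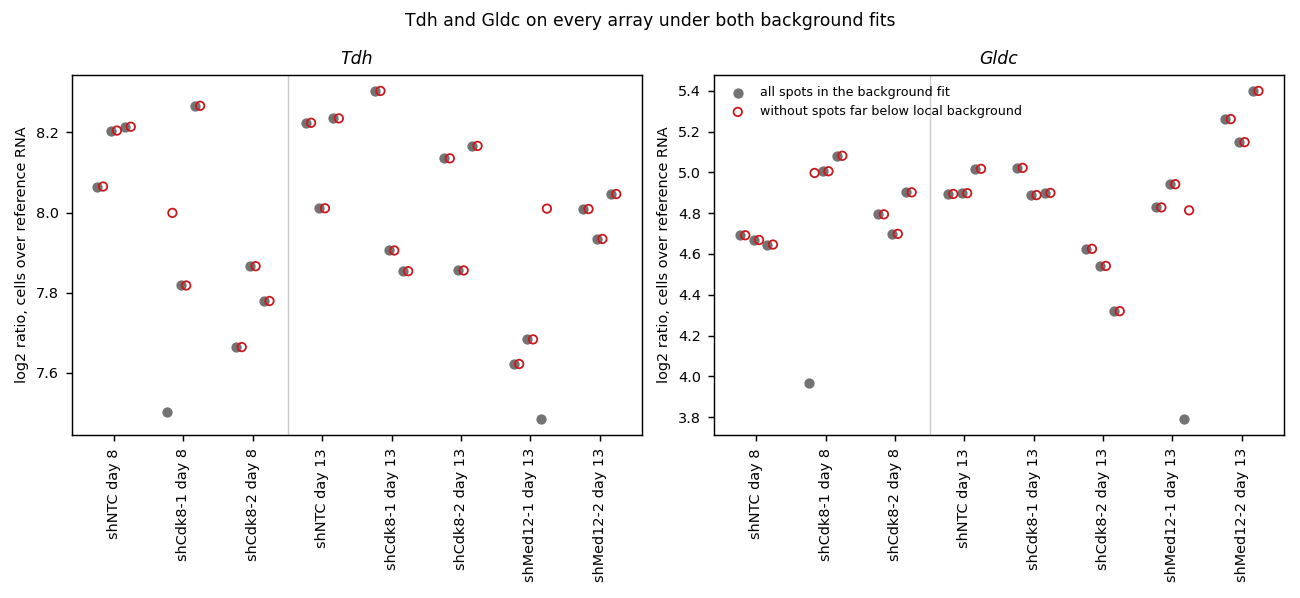
Log2 ratio over the reference RNA (vertical axis) of Tdh (left) and Gldc (right) on every array, with the background fitted on all spots (filled grey points) and without the spots far below their local background (open red circles); the grey vertical line parts day 8 from day 13. The circles stand beside the points at the same height except on 1 array of shCdk8-1 day 8 and 1 of shMed12-1, where Gldc moves up from 3.97 and from 3.79 to the level of the other arrays of its group.

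Med12 knockdown on day 13 lowered enzymes at several steps of the pathway. Both hairpins lowered 5 of the 10 members: Mthfd2, Shmt1, Psph, Shmt2 and Gcat, by 0.24 to 0.65 log2 units. They raised 0 of 10 in common. Of all 22394 genes, 4.79% were called higher and 3.82% lower with both Med12 hairpins. Taken singly, 8 members were lower with shMed12-1, where 24.9% of all genes were called in either direction, and 5 with shMed12-2, where 17.8% were. The median over the members of the mean of both hairpins was -0.29, against 0.00 over all genes. Both comparisons use the same 3 shNTC arrays.

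Mthfd2, the mitochondrial dehydrogenase and cyclohydrolase of the folate cycle, moved farthest of the 5 in the mean of both hairpins and with shMed12-2, while Psph and Shmt1 moved farther with shMed12-1. Its shNTC arrays of day 13 read 0.41, 0.45 and 0.51, those with shMed12-1 0.06, 0.00 and 0.11, and those with shMed12-2 -0.20, -0.19 and -0.20. The groups did not overlap, and shMed12-2 was the lower of the Med12 groups. The differences were -0.40 (SE 0.07, adjusted p = 0.00014) and -0.65 (SE 0.07, adjusted p = 3.5e-07), a 1.32-fold and a 1.57-fold lower level, and the hairpins differed from each other by 0.26 (adjusted p = 0.0072).

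Both serine hydroxymethyltransferases fell. The cytosolic Shmt1 read 2.53, 2.55 and 2.51 with shNTC, 2.13, 2.05 and 1.84 with shMed12-1 and 2.20, 2.18 and 2.33 with shMed12-2. All control arrays were above all knockdown arrays, and the differences were -0.52 (adjusted p = 1.4e-05) and -0.30 (adjusted p = 0.0046), or -0.44 and -0.30 with the refitted background. The mitochondrial Shmt2 read -0.61, -0.54 and -0.59 with shNTC, -0.96, -0.90 and -0.87 with shMed12-1 and -0.84, -0.97 and -0.95 with shMed12-2. Here both hairpins gave nearly the same value, -0.33 (SE 0.07, adjusted p = 0.0023) and -0.34 (adjusted p = 0.0021), and no knockdown array reached the controls.

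Gcat, the ligase that completes threonine breakdown, read 0.59, 0.60 and 0.62 with shNTC, 0.27, 0.34 and 0.39 with shMed12-1 and 0.28, 0.40 and 0.40 with shMed12-2. It fell by 0.27 and 0.24 (differences -0.27 and -0.24, SE 0.06, adjusted p = 0.0016 and 0.0047), with no overlap between control and knockdown arrays. Psph, the phosphatase of the last step of serine synthesis, read 0.61, 0.66 and 0.82 with shNTC, 0.03, 0.06 and 0.38 with shMed12-1 and 0.39, 0.42 and 0.37 with shMed12-2. Its differences were -0.54 (SE 0.10, adjusted p = 0.00033) and -0.30 (SE 0.10, adjusted p = 0.034). A second probe of Psph gave -0.54 and -0.21, and a second probe of Shmt1 gave -0.58 and -0.27.

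The first enzymes of serine synthesis did not follow Psph with both hairpins. Phgdh, which commits carbon to the serine pathway, differed by -0.03 and 0.12 with shMed12-1 and shMed12-2 (adjusted p = 0.72 and 0.19). Psat1, the aminotransferase of the middle step, fell with shMed12-1 (-0.33, adjusted p = 0.015) and differed by -0.03 with shMed12-2 (adjusted p = 0.88). Mthfd1l, the mitochondrial synthetase that releases formate, likewise fell with shMed12-1 (-0.28, SE 0.05, adjusted p = 0.00019) and differed by 0.05 with shMed12-2 (adjusted p = 0.59). The hairpins differed from each other in Gldc, Shmt1, Mthfd1l and Psat1, lower with shMed12-1 in each, and in Mthfd2, lower with shMed12-2. After the refit the difference in Shmt1 was -0.15 and no longer called (adjusted p = 0.06), while Phgdh (-0.18, adjusted p = 0.028) and Psph (-0.26, adjusted p = 0.037) were called lower with shMed12-1.

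Arrays lay on 8 slides, and a slide carries its own scan. The slide was entered as a fixed block here and below, with which 26 of the members' 50 called values lost their call. As a random block it cost 2 of them, at an estimated correlation of -0.031 between arrays of a slide. The fixed block also lowered the share of all genes called, from 24.9 to 6.76% with shMed12-1 and from 17.8 to 12.7% with shMed12-2. With the slide as a block, the mean of both Med12 hairpins stayed called for all 5 genes, at -0.57 for Mthfd2, -0.48 for Shmt1, -0.38 for Psph, -0.31 for Shmt2 and -0.29 for Gcat, but shMed12-1 alone was no longer called for Gcat (adjusted p = 0.074), Shmt2 (0.12), Psph (0.14), Tdh (0.33), Psat1 (0.4) and Mthfd1l (0.065), nor shMed12-2 for Psph (0.051). No shMed12-1 array shared a slide with shNTC. On the 2 slides that held shMed12-2 and shNTC together, the differences were -0.64 and -0.71 for Mthfd2, -0.36 and -0.33 for Shmt1, -0.30 and -0.38 for Shmt2, -0.31 and -0.22 for Gcat and -0.27 and -0.40 for Psph. The call of Psph with both hairpins was lost when shNTC replicate 2 or 3 or any 1 shMed12-2 array was left out, and its mean of both hairpins over all arrays was -0.42.

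Markers of other cell types moved in the same comparison. Of the fibroblast markers 5 of 12 were higher with both Med12 hairpins, and their median log2 ratio to the reference was -3.87 with shMed12-1 and -3.81 with shMed12-2 against -4.24 with shNTC. Of the trophectoderm markers 3 of 6 were higher, with medians of 1.28 and 0.57 against -0.11. Of the ES cell markers 2 of 11 were lower (5 after the refit), and their median difference for the mean of both hairpins was -0.67 (-0.51 after the refit). Of the primitive endoderm markers 4 of 12 were lower and 1 higher. Their part in the changes of the enzymes was not tested, and in RNA from whole cultures fewer cells of a type and less RNA per cell cannot be told apart.

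**Figure D3:**
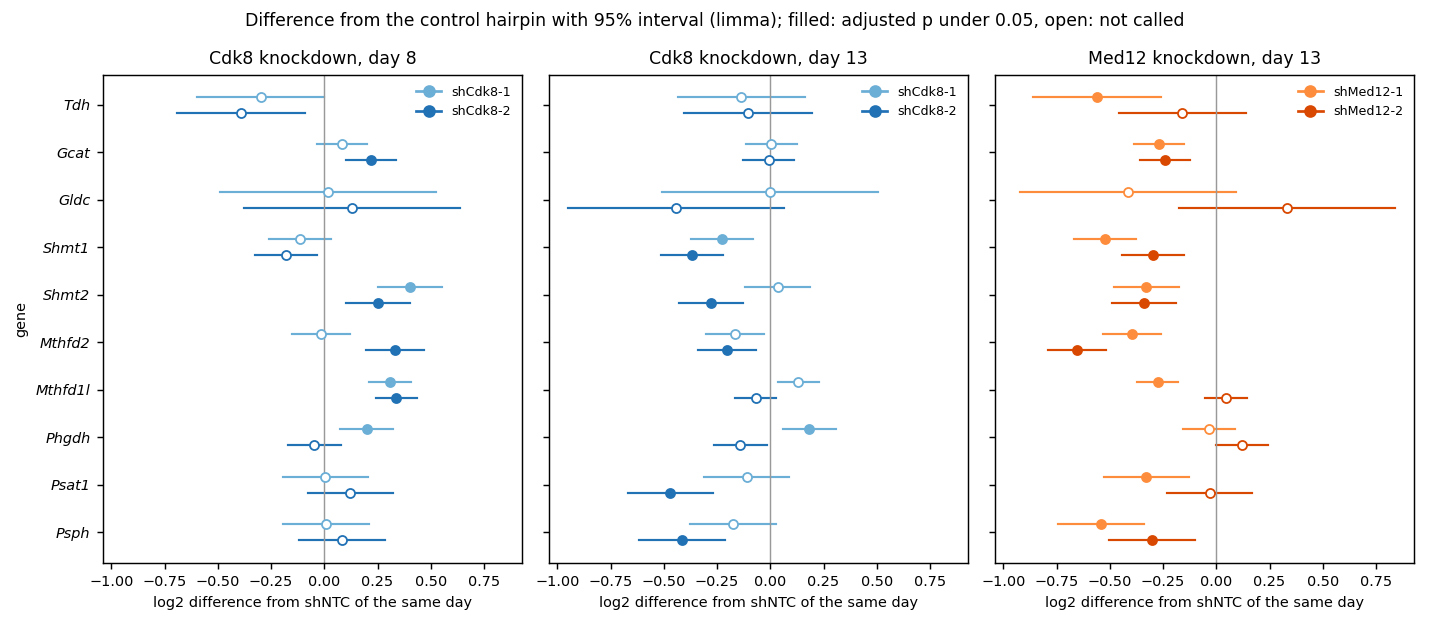
Difference in log2 ratio from shNTC of the same day (horizontal axis) for the 10 enzyme genes, with 1 point for each hairpin and its 95% interval from limma; filled points have an adjusted p under 0.05. In the Med12 panel both points of Gcat, Shmt1, Shmt2, Mthfd2 and Psph are filled and left of 0, and in the panel of Cdk8 on day 8 both points of Shmt2 and Mthfd1l are filled and right of 0.

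The promoters of the 5 genes that fell with both Med12 hairpins are shown because these members moved together. The sequences are RefSeq's, build GRCm38.p6, and give the 250 bases before the transcript start, 5′ to 3′ on the gene's strand, with each GC box (CCGCCC or its reverse complement GGGCGG, a binding motif of Sp1-type factors) in capitals. Gcat lies at chr15:79030624-79030873 (plus strand), Shmt1 at chr11:60811266-60811515 (minus), Shmt2 at chr10:127522445-127522694 (minus), Mthfd2 at chr6:83317605-83317854 (minus) and Psph at chr5:129787254-129787503 (minus).
Gcat: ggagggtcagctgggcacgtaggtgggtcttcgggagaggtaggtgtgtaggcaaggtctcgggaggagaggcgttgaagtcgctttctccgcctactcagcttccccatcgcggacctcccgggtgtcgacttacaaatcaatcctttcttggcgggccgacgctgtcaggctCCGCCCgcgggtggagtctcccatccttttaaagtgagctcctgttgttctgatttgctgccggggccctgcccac
Shmt1: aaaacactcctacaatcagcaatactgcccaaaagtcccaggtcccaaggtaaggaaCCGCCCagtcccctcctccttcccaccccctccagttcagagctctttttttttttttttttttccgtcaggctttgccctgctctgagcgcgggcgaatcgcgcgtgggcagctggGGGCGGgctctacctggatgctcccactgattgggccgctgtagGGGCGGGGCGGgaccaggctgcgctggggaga
Shmt2: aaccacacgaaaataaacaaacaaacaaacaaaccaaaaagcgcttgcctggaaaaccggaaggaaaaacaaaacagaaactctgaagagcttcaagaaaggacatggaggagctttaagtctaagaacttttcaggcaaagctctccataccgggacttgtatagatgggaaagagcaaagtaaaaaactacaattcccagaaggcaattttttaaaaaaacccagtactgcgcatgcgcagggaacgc
Mthfd2: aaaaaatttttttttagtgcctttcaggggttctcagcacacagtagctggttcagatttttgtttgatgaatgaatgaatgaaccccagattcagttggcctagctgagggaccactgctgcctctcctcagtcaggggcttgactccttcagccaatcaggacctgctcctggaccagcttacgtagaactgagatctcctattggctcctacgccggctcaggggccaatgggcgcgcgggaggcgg
Psph: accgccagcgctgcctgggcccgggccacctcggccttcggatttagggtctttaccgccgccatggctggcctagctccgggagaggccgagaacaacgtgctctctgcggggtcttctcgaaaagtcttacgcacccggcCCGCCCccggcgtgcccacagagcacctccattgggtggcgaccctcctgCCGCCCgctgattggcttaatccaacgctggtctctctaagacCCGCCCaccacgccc
They shared no letter pattern among those searched. GC boxes stood in Gcat (1), Shmt1 (4) and Psph (3) and in neither Shmt2 nor Mthfd2, and 32.7% of all 32851 promoter windows of that length hold at least 1. The GC content ran from 40.8% in Shmt2 to 67.2% in Psph, against a median of 52.4% over all windows. TGATGNAA, the core of the CCAAT/enhancer-ATF response element that ATF4 binds, was looked for on both strands because ATF4 is a known activator of serine synthesis genes, and so was the E-box CACGTG. Neither was in any of the 10 windows found for 9 members (Psat1 has 2 starts), and 3.45% and 6.02% of all windows hold them. Only GC boxes were found in the windows printed, so no motif of one kind overlapped one of another.

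Cdk8 knockdown on day 8 raised a pair of mitochondrial folate enzymes. Both hairpins raised 2 of 10 members, Shmt2 and Mthfd1l, and lowered 0 in common. Over all genes 2.78% were higher and 2.32% lower with both hairpins. With shCdk8-1 alone 3 members were higher, and 16.9% of all genes were called. With shCdk8-2 alone 4 were higher, and 14.0% were called. The members' median of the mean of both hairpins was 0.07, against 0.00 over all genes, and both hairpins were compared with the same 3 shNTC arrays.

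Mthfd1l read -0.38, -0.41 and -0.45 with shNTC of day 8, -0.11, -0.14 and -0.06 with shCdk8-1 and -0.05, -0.05 and -0.12 with shCdk8-2. All knockdown arrays were above all controls, by 0.31 (SE 0.05, adjusted p = 0.0001) and 0.34 (SE 0.05, adjusted p = 5.5e-05). Shmt2 read -0.54, -0.59 and -0.65 with shNTC, -0.13, -0.34 and -0.10 with shCdk8-1 and -0.34, -0.39 and -0.28 with shCdk8-2. Again the groups did not overlap with the control, and the differences were 0.40 (SE 0.07, adjusted p = 0.00066) and 0.25 (SE 0.07, adjusted p = 0.023), or 1.32-fold and 1.19-fold higher. With the slide as a block Mthfd1l kept its call with both hairpins (0.32 and 0.30, adjusted p = 0.032 and 0.01), while Shmt2 gave 0.37 and 0.22 and lost it (adjusted p = 0.099 and 0.19). On the slide that held shCdk8-2 and shNTC of day 8 together, Shmt2 and Mthfd1l each differed by 0.26. No shCdk8-1 array of day 8 shared a slide with shNTC of that day. The call of Shmt2 with both hairpins was also lost without replicate 2 or 3 of shNTC and without replicate 1 or 3 of shCdk8-2, while that of Mthfd1l held without any 1 of the 9 arrays.

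Of the other members 3 were called with 1 Cdk8 hairpin on day 8. Mthfd2, which works between Shmt2 and Mthfd1l in the mitochondrial pathway, was higher with shCdk8-2 (0.33, adjusted p = 0.0016) and differed by -0.02 with shCdk8-1, and the hairpins differed from each other (-0.35, adjusted p = 0.00085). Gcat was higher with shCdk8-2 (0.22, adjusted p = 0.012; 0.08 with shCdk8-1), and Phgdh with shCdk8-1 (0.20, adjusted p = 0.025; -0.05 with shCdk8-2). Both of these calls were lost with the slide as a block (adjusted p = 0.12 and 0.14), with only the groups compared (0.12 and 0.075) and with Cy5 alone (0.36 and 0.54), that of Gcat also without shCdk8-2 replicate 1, and that of Phgdh without replicate 2 or 3 of shNTC or of shCdk8-1. Shmt1 differed by -0.12 and -0.18 and was not called, although its second probe gave -0.28 and -0.37. With shCdk8-2 Shmt1 was called lower in the authors' deposited value table (-0.22, adjusted p = 0.00073, limma) and, like Tdh, after the refit (-0.18, adjusted p = 0.031). It was not called with the slide as a block (-0.20, adjusted p = 0.24). With shCdk8-1 the refit gave -0.04 (adjusted p = 0.73) and the authors' table -0.05 (adjusted p = 0.41, limma) for Shmt1. Psat1 and Psph differed by 0.12 at most (adjusted p between 0.46 and 0.98), but Psph with shCdk8-2 gave 0.20 on its second probe and was called higher in the authors' deposited value table (0.21, adjusted p = 0.037, limma) and with Feature Extraction's ratio (0.21, adjusted p = 0.038). Of the primitive endoderm markers 7 of 12 were lower with both hairpins on this day, with medians of -0.59 and -1.17 against -0.42 with shNTC. Of the fibroblast markers 2 of 12 and of the trophectoderm markers 2 of 6 were lower as well, and the part of these markers in the changes above was not tested.

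On day 13 Cdk8 knockdown lowered the cytosolic serine hydroxymethyltransferase. Both hairpins lowered 1 of 10 members, Shmt1, and raised 0. Over all genes 2.37% were higher and 1.85% lower with both. The members' median was -0.15 against 0.00 over all genes. With shCdk8-1 alone 1 member was higher and 1 lower, and 12.6% of all genes were called. With shCdk8-2 alone 5 were lower, and 11.6% of all genes were called.

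Shmt1, the cytosolic enzyme, read 2.53, 2.55 and 2.51 with shNTC, 2.28, 2.26 and 2.36 with shCdk8-1 and 2.21, 2.14 and 2.14 with shCdk8-2, below the controls on all 6 knockdown arrays. The differences were -0.23 (SE 0.07, adjusted p = 0.035) and -0.37 (SE 0.07, adjusted p = 0.0014), and its second probe gave -0.27 and -0.38. With the slide as a block shCdk8-1 gave -0.35 (adjusted p = 0.097) and shCdk8-2 -0.44 (adjusted p = 0.018). On the slide shared by shCdk8-2 and shNTC the difference was -0.39. No shCdk8-1 array of day 13 shared a slide with shNTC of that day. Without any 1 of the 3 shNTC arrays, or without shCdk8-1 replicate 1 or 2, the call with both hairpins was lost.

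The other called members of day 13 rested on a single hairpin. With shCdk8-2 Psat1 fell by 0.47 (difference -0.47, adjusted p = 0.0024), Psph by 0.42 (-0.42, adjusted p = 0.007), Shmt2 by 0.28 (-0.28, adjusted p = 0.015) and Mthfd2 by 0.20 (-0.20, adjusted p just under 0.05), which covers the last steps of serine synthesis and the mitochondrial entry of serine carbon. With shCdk8-1 the same genes differed by -0.11, -0.18, 0.03 and -0.17 and none was called, while Phgdh rose by 0.18 (adjusted p = 0.047). The other probes of Phgdh gave 0.13 and 0.07 with shCdk8-1. With the slide as a block only Psat1 with shCdk8-2 kept its call among these single-hairpin calls (-0.54, adjusted p = 0.0011), and those of Psph, Shmt2, Mthfd2 and Phgdh were lost (adjusted p between 0.11 and 0.19). The hairpins differed from each other in Shmt2 (0.31), Mthfd1l (0.20), Phgdh (0.32) and Psat1 (0.36), all higher with shCdk8-1 (adjusted p between 0.0009 and 0.016). Of the fibroblast markers 3 of 12 and of the trophectoderm markers 3 of 6 were higher with both hairpins, with medians of -3.82 and -3.81 against -4.24 and of -0.04 and 0.14 against -0.11. Of the primitive endoderm markers 4 of 12 and of the ES cell markers 2 of 11 were lower, and the part of these markers was not tested.

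The effect of Cdk8 knockdown on the mitochondrial folate enzymes differed between the days. The effect is the mean of both hairpins minus shNTC, and its change is day 13 minus day 8. For Shmt2 it went from 0.33 to -0.12, a change of -0.45 (SE 0.09, adjusted p = 0.0071), for Mthfd2 from 0.16 to -0.19, a change of -0.34 (SE 0.08, adjusted p = 0.024), and for Mthfd1l from 0.32 to 0.03, a change of -0.29 (SE 0.06, adjusted p = 0.0065). These 3 of 10 members were called lower and 0 higher, while 2.37% of all genes were called in either direction. Shmt2, Mthfd2 and Mthfd1l are successive enzymes on the mitochondrial route from serine to formate. With shCdk8-1 their differences from shNTC went from 0.40, -0.02 and 0.31 on day 8 to 0.03, -0.17 and 0.13 on day 13. With shCdk8-2 they went from 0.25, 0.33 and 0.34 to -0.28, -0.20 and -0.07. The change with a single hairpin was not tested. Between the days shNTC itself differed by 0.28 in Mthfd2, 0.12 in Mthfd1l and 0.01 in Shmt2. The change in the effect on Mthfd2 thus includes the rise of its control. The Mthfd2 mean went from 0.16 to 0.29 with shCdk8-1 and from 0.51 to 0.25 with shCdk8-2. With the slide as a block the changes in the mean of both hairpins were -0.38, -0.33 and -0.27. None was called (adjusted p = 0.12, 0.16 and 0.084). Mthfd2 also lost its call without replicate 2 or 3 of shNTC on either day (adjusted p between 0.065 and 0.085).

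Psat1 and Psph changed by -0.35 and -0.34 without passing the test (adjusted p = 0.14 and 0.16), and Phgdh, at the head of their pathway, by -0.06. Gldc changed by -0.29 (adjusted p = 0.77), or by -0.46 after the refit (adjusted p = 0.003). Tdh had a change above 0, 0.23 (95% interval -0.14 to 0.59), and Gcat, its partner, one of -0.15 (adjusted p = 0.34).

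**Figure D4:**
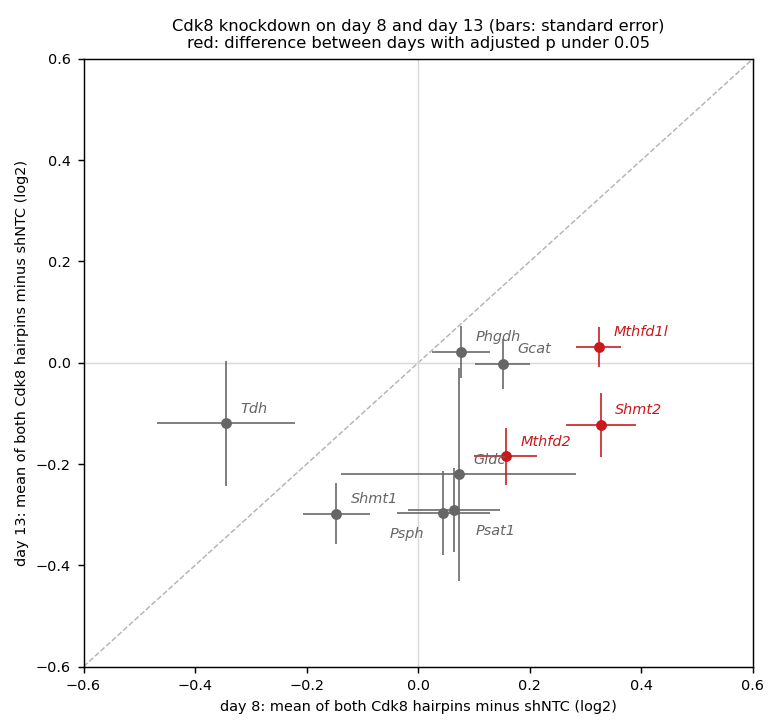
Mean difference of both Cdk8 hairpins from shNTC (log2) on day 8 (horizontal axis) and on day 13 (vertical axis) for the 10 enzyme genes, with standard errors; the dashed line marks equal effects, and red marks a difference between the days with adjusted p under 0.05. Shmt2, Mthfd2 and Mthfd1l lie below the line, at 0.33, 0.16 and 0.32 on day 8 and -0.12, -0.19 and 0.03 on day 13.

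Phgdh and Psat1 of serine synthesis, and Mthfd2, rose with time in the control cells. Between day 8 and day 13 of shNTC 3 of 10 members rose and 0 fell, and 17.6% of all genes were called in either direction. Phgdh read -1.06, -1.09 and -1.11 on day 8 and -0.69, -0.70 and -0.76 on day 13, a rise of 0.37 (SE 0.06, adjusted p = 0.00014). Its other probes rose by 0.31 and 0.39. Psat1 read -0.01, -0.06 and -0.25 on day 8 and 0.29, 0.20 and 0.24 on day 13, a rise of 0.35 (SE 0.10, adjusted p = 0.013), and Mthfd2 read 0.24, 0.16 and 0.14 and then 0.41, 0.45 and 0.51, a rise of 0.28 (SE 0.07, adjusted p = 0.0048).

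None of these 3 genes had overlapping arrays between the days. Psph, the remaining step of serine synthesis, differed by 0.24 (adjusted p = 0.1). Gldc differed by 0.27 (adjusted p = 0.52), a rise that was called after the refit (adjusted p = 0.011). The median over the members was 0.19, against 0.00 over all genes. On the 2 slides that held both days, the differences were 0.36 and 0.34 for Phgdh, 0.21 and 0.30 for Psat1 and 0.21 and 0.35 for Mthfd2. Psat1 lost its call without shNTC replicate 3 of day 8 (0.28, adjusted p = 0.087) or replicate 1 of day 13 (0.33, adjusted p = 0.055). The controls of the knockdown comparisons thus stood at different levels of these genes on the 2 days.

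Set against each other on day 13, Cdk8 and Med12 knockdown differed in Gcat and in the mitochondrial enzymes Mthfd2, Shmt2 and Mthfd1l. Of the 10 members 4 were higher with Cdk8 than with Med12 knockdown and 0 lower, and 18.2% of all genes were called in either direction. Mthfd2 was higher by 0.34 (SE 0.05, adjusted p = 2e-05), Gcat by 0.25 (SE 0.04, adjusted p = 0.00012), Shmt2 by 0.21 (adjusted p = 0.0059) and Mthfd1l by 0.15 (adjusted p = 0.0033). For Gcat and Mthfd2 no Med12 array reached a Cdk8 array, while for Shmt2 and Mthfd1l the arrays overlapped and the hairpins were not alike. The Shmt2 mean with shCdk8-2 was -0.86, near -0.91 and -0.92 with the Med12 hairpins, against -0.55 with shCdk8-1. The Mthfd1l arrays with shCdk8-2 (-0.38 to -0.34) all lay below those with shMed12-2 (-0.26 to -0.23), opposite to the difference of the means. Tdh differed by 0.24 (adjusted p = 0.11). Shmt1 and Psph, lowered by both Med12 hairpins, differed by 0.11 (95% interval 0.01 to 0.21, adjusted p = 0.14) and 0.13 (adjusted p = 0.24). Gldc was called lower with Cdk8 than with Med12 knockdown after the refit (-0.35, adjusted p = 3e-05) but not before it (-0.18, adjusted p = 0.54). Its hairpins were not alike either. The refitted Gldc means were 4.94 with shCdk8-1 and 4.50 with shCdk8-2, against 4.86 with shMed12-1 and 5.27 with shMed12-2. The shCdk8-1 mean thus lay above that of shMed12-1, opposite to the called difference.

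Of 63 further genes of serine, glycine, folate, methionine and purine metabolism, 56 were tested. With both Cdk8 hairpins on day 8, 3 were higher and 1 lower (5.36 and 1.79%, against 2.78 and 2.32% of all genes). Slc6a9, a transporter that brings glycine into the cell, rose by 0.51 and 0.64 (adjusted p = 6.3e-06 and 4.9e-07), Mat2b, a regulatory subunit of the enzyme that makes S-adenosylmethionine, by 0.32 and 0.24, and Prps2, which makes the ribose donor of purine synthesis, by 0.21 and 0.28. Mtfmt, which formylates the mitochondrial initiator tRNA with a folate-bound carbon, fell by 0.26 and 0.47 (differences -0.26 and -0.47). On day 13 Slc6a9 was higher with shCdk8-1 (0.29) and lower with shCdk8-2 (-0.23), both called, and in shNTC it rose by 0.53 between the days (adjusted p = 3.1e-06).

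On day 13, 1 of the 56 genes was higher (1.79%) and 2 lower (3.57%) with both Cdk8 hairpins, against 2.37 and 1.85% of all genes. With both Med12 hairpins 1 was higher (1.79%) and 4 lower (7.14%), against 4.79 and 3.82% of all genes. Mthfd1, the cytosolic folate enzyme of several activities, was lower in both knockdowns, by 0.22 and 0.30 with the Cdk8 hairpins (differences -0.22 and -0.30) and by 0.23 and 0.24 with the Med12 hairpins (-0.23 and -0.24), all against the same shNTC arrays. With Cdk8 knockdown Mat2b was higher (0.21 with each hairpin) and Mtfmt lower (-0.17 and -0.30). With Med12 knockdown Prps1 (-0.41 and -0.24) and Prps2 (-0.20 and -0.26), a pair of enzymes that make the ribose donor, were lower and the amino acid transporter Slc38a1 higher (0.24 and 0.21). The median over the 56 genes was 0.01, -0.04 and -0.07 for Cdk8 on day 8, Cdk8 on day 13 and Med12, against 0.00 over all genes in each case. After the refit the counts were 1 higher and 3 lower for Cdk8 on day 13 and 2 higher and 6 lower for Med12. Of all genes 3.64% were then higher and 3.37% lower for Cdk8 on day 13, and 5.72 and 5.24% for Med12. Before the refit no gene of the glycine cleavage partners or of the serine and threonine breakdown list was called with both hairpins in any of the 3 comparisons.

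Within the members, Gcat and Mthfd2 had the closest pattern. Their Pearson correlation over 24 arrays was 0.82, which ranked Mthfd2 eighth among 13731 named genes for likeness to Gcat, and Shmt2 and Mthfd1l correlated at 0.70. Gcat did not follow Tdh, the enzyme before it (r = 0.09, rank 5315 of 13731). The 5 named genes most like Tdh were Gbx1 (0.81), Krt17 (0.80), Fxyd6 (0.80), Nkx6-2 (0.79) and Bex4 (0.78). All arrays share the reference RNA, and the 2 arrays with the stray background fit, where high ratios shrink together, bear on this list: after the refit the same 5 genes had correlations of 0.64 to 0.75, and the genes most like Tdh were Gna13, Serpinb6c, Fxyd6, Olfr599 and Krt17. These correlations describe the 24 arrays and were not tested.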

How the data were processed

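Per the labels, Cy5-labelled cRNA of the cells was hybridised with Cy3-labelled reference on every array, with no dye swap. The spots were read with Agilent Feature Extraction 10.7, per the submitters' processing notes. Per the file headers, the scanner files hold each spot's median intensity and local background in both channels, not normalized, and Feature Extraction's own log10 ratio. A value table that the authors deposited gives log2 of Cy5 over Cy3. Its direction and scale were settled against the scanner ratios (lowest slope 0.999), its column medians lay between -0.0049 and 0.12, and the reason for its 3376 to 10335 blanks per column is unknown.

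Intensities were corrected with normexp (offset 50) and ratios normalized by loess within each array, without 1639 control spots of 45018 and without outlier marks (median 334.5). Of 41174 probes, 22951 matched a RefSeq symbol (assembly GRCm38.p6) by accession. A probe entered if Cy5 was well above background on each of the 3 arrays of some group (28304 probes), and the brightest stood for its gene. The 24 arrays entered 1 limma 3.58.1 fit (R 4.3.3) of 8 group means with 16 residual degrees of freedom and moderated two-sided tests, adjusted by Benjamini-Hochberg over 22394 genes and called under 0.05. A gene was called with both hairpins where each passed in the same direction. The fit was tested on simulated data. The members, the gene and marker lists and the alternatives were chosen with earlier results of these data known. The genes named are the 10 members, both targets, the 5 genes most like Tdh, and up to 4 called genes of the pathway lists per knockdown and day. One called gene of these lists is not reported here. Slc38a1, Slc6a9 on day 13 and the genes most like Tdh after the refit were named after their values were seen. Promoter sequences are RefSeq's, and Tdh had no entry. The number of arrays limits the precision. The alternatives covered the background correction, normalization, probe filter, slide and replicate blocks, the authors' deposited values and arrays left out.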

Additional observations from a re-analysis of the deposited data

Results flagged for a closer look

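The effect of Cdk8 knockdown differed between day 13 and day 8 for 3 enzymes, by limma's test of the difference itself: Shmt2 (-0.45, adjusted p = 0.0071), Mthfd1l (-0.29, adjusted p = 0.0065) and Mthfd2 (-0.34, adjusted p = 0.024). The mean effect of both hairpins was 0.33 on day 8 and -0.12 on day 13 for Shmt2, 0.32 and 0.03 for Mthfd1l, and 0.16 and -0.19 for Mthfd2. Each day has its own shNTC arrays, in which Mthfd2 itself rose by 0.28 between the days.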

How the results depend on the processing

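With median centring in place of loess, 0 members were called with both hairpins in each knockdown. The counts were also 0 in the shNTC days, in Cdk8 against Med12 and between the days. Among called values no direction changed, and the cause was not tested. Median centring also lowered the share of all genes called, from 24.9 to 5.89% with shMed12-1 and from 2.37 to 0.0938% between the days. With the slide block that share was 6.76% with shMed12-1 and 0.706% between the days. Feature Extraction's ratio raised it from 17.6 to 26.4% in the shNTC days and from 18.2 to 24.8% for Cdk8 against Med12. For Cdk8 on day 8 the count of 2 became 1 with the Cy5 channel alone, with the slide as a fixed block and with only the groups compared, and 1 to 3 when 1 array was left out. For Cdk8 on day 13 the count of 1 became 0 with Cy5 alone, with no filter and with the slide block, and 0 to 1 when 1 array was left out. For Med12 the count of 5 became 2 with the slide block and was 4 to 5 when 1 array was left out; Shmt1 and Mthfd2 were called in 15 of 16 settings and without any 1 of the 9 arrays. For the shNTC days 3 became 5 with Feature Extraction's log ratio, the authors' table or only the groups compared, 6 without both arrays with a stray background fit, and 2 to 3 when 1 array was left out. For Cdk8 against Med12 4 became 7 with Feature Extraction's ratio or the authors' table. Between the days 3 became 0 with the slide block and 5 without both arrays, and stayed 2 to 3 when 1 array was left out. Gldc with Med12 knockdown turned from -0.04 to 0.24 with Cy5 alone (adjusted p = 0.016). The replicate numbers did not pair the arrays (correlations of deviations -0.12 to 0.21, with 2 of 18 over 0.1), and with the replicate block 5 of 50 called values lost their call and the counts were the same (2, 1, 5, 3, 4 and 3). Under the remaining settings each count stayed within 1.5 times its value. All 14 probes were well above background on every array.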
